A study of Mus musculus with 16 samples.

Results

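The loss of Ch25h was examined in the hippocampus of tau mice by comparing 4 libraries labelled Ch25h-/- Tau+ with 4 labelled Ch25h+/+ Tau+. These 8 libraries are part of a set of 16, in which the other 8 carry the same Ch25h labels without tau (Tau-). All came from female mice aged 9 months, and nuclear RNA of the hippocampus was counted, so the values describe nuclear transcripts. A barcode was taken as a nucleus at 500 or more unique molecular identifiers (UMIs), 300 or more genes and at most 5% mitochondrial UMIs. By this rule the 8 Tau+ libraries held 72288 of the 147873 nuclei of the set, 10062, 9493, 8408 and 8767 in the libraries labelled Ch25h+/+ and 10169, 8130, 8871 and 8388 in those labelled Ch25h-/-. The tau line and its promoter, the part of Ch25h that was deleted and the strain in which it was targeted are not given in the sources used here. Nothing in the labels says whether each library is 1 animal, so p-values measure the spread between these samples, which may in part be technical.

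Ch25h encodes cholesterol 25-hydroxylase, an interferon-induced enzyme that makes the oxysterol 25-hydroxycholesterol. This oxysterol holds back SREBP2, the transcription factor that drives cholesterol synthesis and uptake, and is a ligand of the LXR receptors, which drive cholesterol efflux through genes such as Abca1 and Apoe. A further hydroxylation by the enzyme of Cyp7b1 gives the ligand of the receptor GPR183. In brain, Ch25h is known mainly as a gene of activated microglia. The title of the series places CH25H between STING, interferon and tau pathology, so the comparison asks which genes differ in each hippocampal cell class when tau mice lack it, and whether interferon, sterol and glial state genes are among them.

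After removal of 5261 nuclei scored as doublets, 67027 nuclei of the 8 libraries remained, and 62478 fell into clusters that could be named. The libraries held 51270831 to 84870650 UMIs each, with medians of 3642 to 5308 UMIs and 1912 to 2486 genes per nucleus. The classes tested were granule neurons of the dentate gyrus (DG, 8649 nuclei), pyramidal neurons of the CA fields (9479), other excitatory neurons (9294), inhibitory neurons (5263), astrocytes (6702), oligodendrocytes (13528), their precursors (1854) and microglia (3467). All fixed markers of these classes were detected in them, and the share that was 2-fold or more above all other nuclei ran from 9 of 15 in other excitatory neurons to 14 of 14 in microglia. Neither group held a copied library. With each group's mean taken out, and so without differences between groups, the first principal component held 21.6 to 34.4% of the remaining variance. Over all 16 libraries it separated replicates 1 and 2 from replicates 3 and 4 of every group in 6 of the 8 classes. It placed 15 of 16 libraries that way in microglia and 9 of 16 in inhibitory neurons. The origin of this split is not stated, it crosses the genotypes evenly, and some results are also given within each side of it. Barcodes outside nuclei also differed by it, with median UMIs of 89 to 136 in replicates 1 and 2 and 66 to 82 in replicates 3 and 4.

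Ch25h itself was read at 36, 26, 16 and 16 UMIs over all nuclei of the libraries labelled Ch25h+/+ and at 30, 30, 24 and 12 UMIs in those labelled Ch25h-/-. The groups overlapped, at 0.474 ± 0.210 and 0.451 ± 0.111 CPM (counts scaled to 1000000 UMIs; SD, n = 4, exact two-sided permutation p = 0.857). The count over all nuclei therefore did not separate the labels of the Tau+ libraries. Over all barcodes the levels were 0.630 ± 0.353 and 0.508 ± 0.0711 CPM (SD, n = 4, exact two-sided permutation p = 0.686). In the Tau- libraries the nuclei held 9, 8, 9 and 12 UMIs of Ch25h in those labelled Ch25h+/+ and 21, 10, 25 and 19 in those labelled Ch25h-/-, 38 against 75 in all, with more in the libraries labelled as lacking it. The deleted part is not given in the sources used here, and whether the counted tags lie in it was not tested. Among the 8 classes tested, microglia had most Ch25h per UMI in the libraries labelled Ch25h+/+ (levels in the smaller classes were not compared), with 20, 5, 0 and 7 UMIs against 4, 1, 1 and 1 in those labelled Ch25h-/-. The ranges overlapped at 0 to 20 and 1 to 4 UMIs (exact two-sided permutation p = 0.200), and microglia of the Tau- libraries held no Ch25h UMI. Excitatory neurons went the other way: Ch25h had 0 UMIs in DG granule neurons labelled Ch25h+/+ and 12 in those labelled Ch25h-/-, 3 and 16 in pyramidal neurons of the CA fields, and 7 and 22 in other excitatory neurons. In each of these 3 classes the CPM of the groups did not overlap (exact two-sided permutation p = 0.0286, the smallest that 4 against 4 libraries allow). Inhibitory neurons held 28 and 22 UMIs of Ch25h, with overlapping libraries.

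Gm26902, a transcript annotated across the Ch25h locus, separated the labels over all nuclei but not in every class. It was read at 47, 37, 32 and 39 UMIs in the libraries labelled Ch25h+/+ and at 20, 14, 15 and 17 in those labelled Ch25h-/-. Every library labelled Ch25h-/- was below every library labelled Ch25h+/+, at 0.323 ± 0.0669 against 0.783 ± 0.165 CPM (SD, n = 4, exact two-sided permutation p = 0.0286). Inhibitory neurons held 76 of its 155 UMIs in the libraries labelled Ch25h+/+ and 17 of 66 in those labelled Ch25h-/-. There its level, on library sizes scaled by TMM, was 4.26, 3.52, 3.31 and 2.28 CPM in the libraries labelled Ch25h+/+ and 0.981, 0.537, 0.368 and 1.04 CPM in those labelled Ch25h-/-. These did not overlap, with a log2 fold change of -2.16 (SE 0.36, edgeR adjusted p = 0.0914), and in the Tau- libraries, which share no sample with these, the same class had a log2 fold change of -2.80 (edgeR adjusted p = 0.0146). Other excitatory neurons had 6, 11, 9 and 9 UMIs of Gm26902 in the libraries labelled Ch25h+/+ and 3, 0, 2 and 1 in those labelled Ch25h-/-, again without overlap (0.838 against 0.123 CPM of plain totals, exact two-sided permutation p = 0.0286). Oligodendrocytes went the other way, with 0, 0, 0 and 1 UMIs in the libraries labelled Ch25h+/+ and 3, 2, 2 and 5 in those labelled Ch25h-/- (0.0742 against 0.946 CPM of plain totals, exact two-sided permutation p = 0.0286), and DG granule neurons held 4 against 10 UMIs with overlapping libraries (exact two-sided permutation p = 0.200).

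Few genes were called changed between the tau groups, which does not show that the others were unchanged. Counts were summed per library and class and tested with edgeR's quasi-likelihood test, and a gene is called changed at a Benjamini-Hochberg adjusted p under 0.05. Of 16522 genes tested in CA pyramidal neurons 3 were called (0.0182%): Pyroxd2 fell, and Hps1 and Gm35867 rose. Pyroxd2 was also the 1 gene of 15097 called in DG granule neurons (0.00662%) and the 1 of 16384 called in other excitatory neurons (0.00610%), lower in each. No gene was called among 15029 tested in inhibitory neurons, 12848 in astrocytes, 11937 in oligodendrocytes, 9542 in oligodendrocyte precursors and 8449 in microglia (0% each). At an unadjusted p under 0.05 those 5 classes had 351 (2.34%), 386 (3.0%), 416 (3.48%), 318 (3.33%) and 258 (3.05%) genes, and DESeq2 called 4, 0, 0, 0 and 1. In DG granule, CA pyramidal and other excitatory neurons 506 (3.35%), 546 (3.30%) and 573 (3.50%) genes had an unadjusted p under 0.05. The 4 called by DESeq2 in inhibitory neurons were Gm26902, Hps1, Pdzd7 and Gm35867, and the 1 in microglia was Atp8a2.

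Pyroxd2, which encodes a mitochondrial oxidoreductase, lies on the minus strand of chromosome 19 at 42725858 to 42752775 (GRCm38), 8.25 Mb from Ch25h. Its levels in CA pyramidal neurons were 5.54, 6.40, 5.07 and 5.40 CPM in the libraries labelled Ch25h+/+ and 0.503, 0.595, 0.794 and 0.325 CPM in those labelled Ch25h-/-. All 4 libraries labelled Ch25h-/- were below 1 CPM and none of the others was, a log2 fold change of -3.29 (SE 0.32, edgeR adjusted p = 1.44e-04). DG granule neurons had 7.25, 5.06, 7.96 and 6.05 against 0.376, 1.04, 0.858 and 0.677 CPM. Again no libraries overlapped, at a log2 fold change of -3.12 (SE 0.39, edgeR adjusted p = 0.00312). Both calls were kept whichever library was left out, and that in CA pyramidal neurons was kept in CA1 and CA3 neurons fitted apart (-2.91 and -4.07 on the log2 scale). With 2 libraries per group, Pyroxd2 was called in CA pyramidal neurons in replicates 1 and 2 alone (edgeR adjusted p = 0.0118), and in neither class in replicates 3 and 4 alone. Other excitatory neurons had 4.08, 2.93, 3.48 and 4.46 against 0.373, 0.364, 0.0998 and 0.333 CPM, a log2 fold change of -3.57 (SE 0.49, edgeR adjusted p = 0.0159). The call in other excitatory neurons was kept without Ch25h+/+ replicate 2 or 3 (edgeR adjusted p = 0.0314 and 0.0464) and lost without any 1 of the other 6 libraries, at an adjusted p of up to 0.106. Microglia, where Pyroxd2 stood highest among the 4 classes in which it passed the filter on low counts, did not share the difference: 46.6, 30.2, 47.4 and 40.6 CPM against 25.7, 35.7, 38.6 and 28.4 CPM, with overlapping libraries (-0.34 on the log2 scale).

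Hps1, a subunit of the BLOC-3 complex that acts in the making of lysosome-related organelles, is the next gene upstream of Pyroxd2 on the same strand (chromosome 19, 42755105 to 42779978). CA pyramidal neurons had 22.2, 20.7, 20.7 and 18.7 CPM in the libraries labelled Ch25h+/+ and 32.7, 30.3, 32.9 and 33.1 CPM in those labelled Ch25h-/-. The groups were apart by more than their own ranges, a log2 fold change of 0.65 (SE 0.094, edgeR adjusted p = 0.0141). With 1 library left out the adjusted p was 0.0437 to 0.113, and the call was kept only without Ch25h+/+ replicate 1 (0.0461) or Ch25h-/- replicate 2 (0.0437). Inhibitory neurons had 18.3, 15.9, 20.1 and 19.4 against 30.7, 29.8, 29.1 and 31.5 CPM (0.71, SE 0.11, edgeR adjusted p = 0.0914). Other excitatory neurons and oligodendrocytes also had every library labelled Ch25h-/- above the others (0.72 and 0.59 on the log2 scale), without a call, while in DG granule neurons, astrocytes, precursors and microglia the libraries overlapped.

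Gm35867 is a long intergenic non-coding RNA on the plus strand of chromosome 19 (45058841 to 45110342, 10.6 Mb from Ch25h). Its level in CA pyramidal neurons was 0.780, 0.607, 0.818 and 0.771 CPM in the libraries labelled Ch25h+/+ and 3.88, 4.31, 4.22 and 4.06 CPM in those labelled Ch25h-/-. Neither group varied by more than 1 CPM and they did not overlap, a log2 fold change of 2.46 (SE 0.35, edgeR adjusted p = 0.0141). The call was lost whichever library was left out (edgeR adjusted p = 0.0504 to 0.113), while the log2 fold change stayed at 2.37 to 2.51. The same separation, without a call, was seen in the other 4 classes where the gene was tested. Astrocytes had 1.11, 0.998, 1.35 and 0.750 against 4.77, 5.94, 9.82 and 6.58 CPM, DG granule neurons had a log2 fold change of 2.26, other excitatory neurons 2.55 and inhibitory neurons 1.82. Barcodes under 100 UMIs, which hold free RNA, showed the same direction for all 3 called genes: 10.8 against 2.21 CPM for Pyroxd2, 22.3 against 33.8 CPM for Hps1 and 1.35 against 6.47 CPM for Gm35867.

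**Figure D1:**
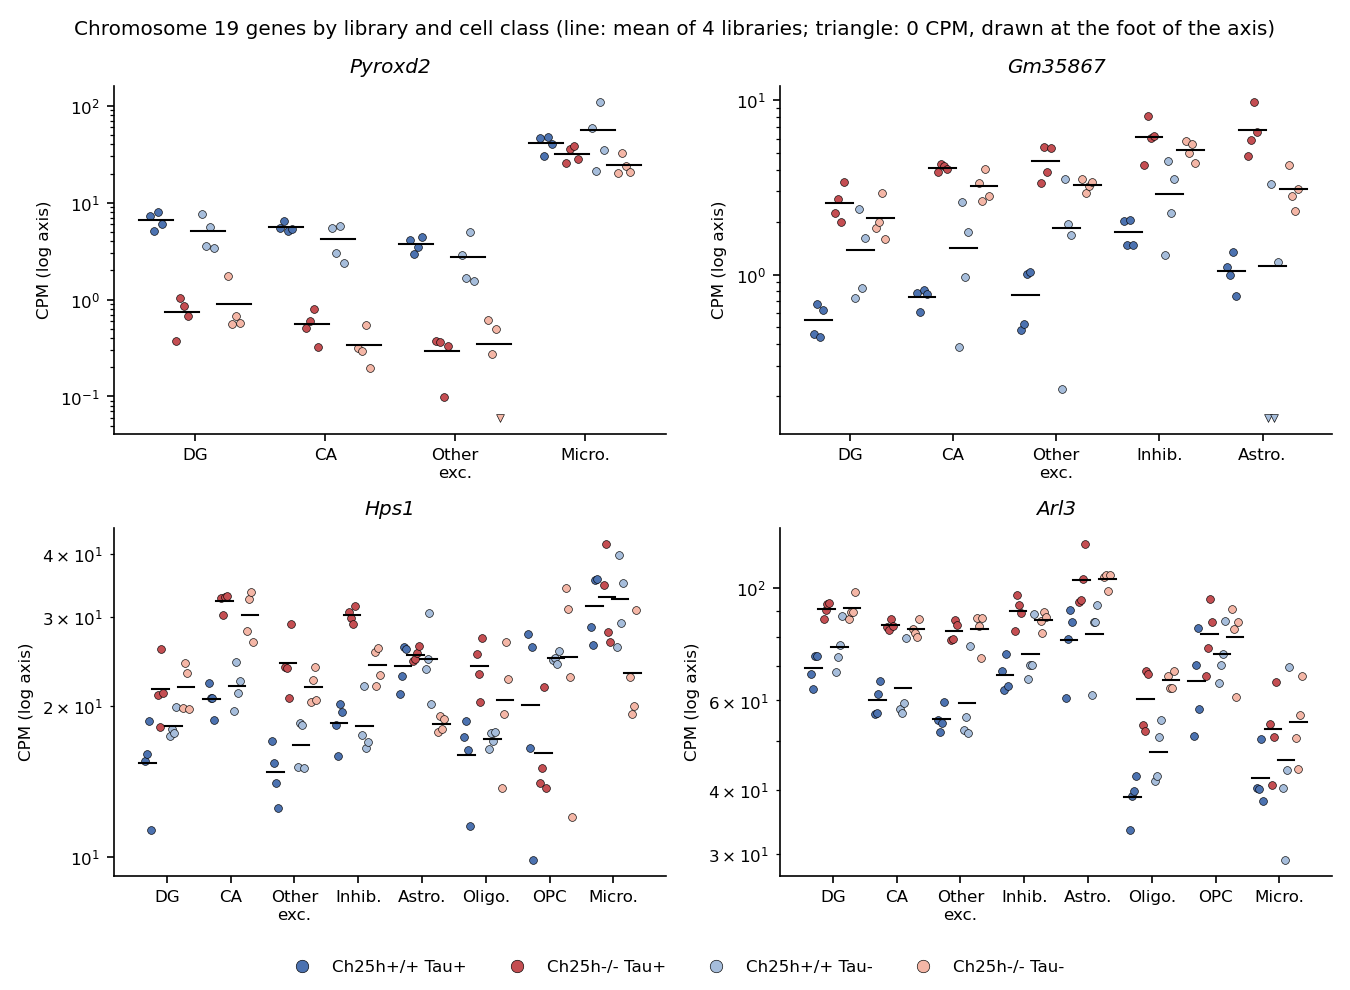
CPM (log axis) of Pyroxd2, Gm35867, Hps1 and Arl3 in every library of the 4 groups, by cell class; points are libraries, lines are means of 4 and triangles stand for 0 CPM. In CA pyramidal neurons the 4 Tau+ libraries labelled Ch25h-/- lie at 0.325 to 0.794 CPM for Pyroxd2, below 5.07 to 6.40 CPM in those labelled Ch25h+/+.

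Other chromosome 19 genes separated the groups in several classes without passing the adjusted threshold. Of 18535 genes tested in any class, 41 were called or had groups that did not overlap, in the same direction, in 3 or more classes, and 14 of these, the 3 called genes among them, were on chromosome 19, 12 of them within 20 Mb of Ch25h. Among all genes tested, groups did not overlap, in either direction, for 2.50% in DG granule neurons, 2.98% in other excitatory neurons, 2.07% in inhibitory neurons and 2.68% in CA pyramidal neurons. Astrocytes had 2.48%, oligodendrocytes 2.70%, precursors 2.27% and microglia 2.34%. These shares are for single classes. Of the 16522 genes tested in CA pyramidal neurons, 261 lay within 20 Mb of Ch25h and 281 on the rest of chromosome 19. All classes come from the same libraries, so recurrence across classes is not independent. Arl3, a small GTPase of cilia, was higher without overlap in 6 classes. Arl3 in CA pyramidal neurons read 56.4, 56.6, 61.9 and 65.4 against 83.8, 82.5, 86.7 and 84.0 CPM (log2 fold change 0.49, SE 0.093, edgeR adjusted p = 0.280). In oligodendrocytes it read 33.4, 38.9, 39.9 and 42.7 against 53.6, 52.2, 68.5 and 67.6 CPM (0.64, SE 0.13, edgeR adjusted p = 0.705). All libraries labelled Ch25h-/- were above all others in both classes, and DESeq2 called the gene in DG granule neurons, CA pyramidal neurons and other excitatory neurons (adjusted p = 0.0393, 0.00738 and 0.00603).

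Genes next to these shared their direction in part. Sfxn2, a mitochondrial transporter gene that starts beside Arl3 on the other strand, had 16.6, 19, 25.2 and 24.0 against 33.0, 34, 49.1 and 33.6 CPM in astrocytes, without overlap (0.82 on the log2 scale), and was also higher without overlap in CA pyramidal neurons (0.38) and microglia (0.76). Bloc1s2, a subunit of the BLOC-1 complex, was higher without overlap in 5 classes, by 0.35 (CA pyramidal neurons) to 0.60 (microglia) on the log2 scale. Gbf1, which activates ARF GTPases at the Golgi, was higher in the 4 neuron classes by 0.19 to 0.30, and Gm50196, Stn1 and Rbm20 in 3 classes each.

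Lower genes lay on the other side of Ch25h as well. Asah2, the neutral ceramidase, was 85.3, 96.7, 116 and 87.2 CPM in oligodendrocytes labelled Ch25h+/+ and 40.5, 58.0, 69.8 and 74.1 CPM in those labelled Ch25h-/-. Asah2 also separated the groups in astrocytes (21.1, 19.3, 26.5 and 14.6 against 9.19, 9.18, 9.24 and 14.5 CPM) and in CA pyramidal neurons (log2 fold changes of -0.67, -0.97 and -0.75 in the 3 classes), although in astrocytes the nearest libraries were at 14.6 and 14.5 CPM. Atad1, Kdm2a and Gm960 were lower without overlap in 4, 4 and 3 classes, the last pair 30.1 and 29.8 Mb from Ch25h. In oligodendrocyte precursors Prkg1, a cGMP-dependent kinase gene 2.71 Mb from Ch25h, read 1242, 1255, 1061 and 1322 against 765, 933, 920 and 895 CPM. Its groups did not overlap (-0.48 on the log2 scale, SE 0.094, edgeR adjusted p = 0.154), and it was called with no filter on low counts (0.00665), with a term for the replicate split (0.0101), in replicates 1 and 2 alone (0.0272) and without Ch25h+/+ replicate 3 (0.0437).

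Within 10 Mb of Ch25h, on either side, the share of genes at an unadjusted p under 0.05 was above that of all other genes in 7 of the 8 classes. It was 8.21% in CA pyramidal neurons (11 of 134, against 3.26% elsewhere), 5.69% in DG granule neurons (7 of 123, against 3.33%), 6.47% in other excitatory neurons (9 of 139, against 3.47%) and 5.0% in inhibitory neurons (6 of 120, against 2.31%). Oligodendrocytes had 8.82% (9 of 102, against 3.44%), precursors 6.49% (5 of 77, against 3.31%) and microglia 7.25% (5 of 69, against 3.02%), while astrocytes had 1.80% (2 of 111, against 3.01%). These are descriptions, since neighbouring genes are not independent. Within 20 Mb, which takes in Gm35867 and Arl3, the share ran from 4.72% in astrocytes (10 of 212) to 11.8% in other excitatory neurons (31 of 263), against 2.21 to 3.41% elsewhere. On the rest of chromosome 19, more than 20 Mb away, it was 5.34% in CA pyramidal neurons (15 of 281), 5.13% in astrocytes (12 of 234), where it was above both nearer windows, 4.69% in DG granule neurons (12 of 256) and 2.37 to 3.42% in the other 5 classes. Within 5 Mb none of the 28 to 59 genes tested in a class was called, and the share was 2.08% in astrocytes, 2.17% in DG granule neurons and 9.26% in CA pyramidal neurons. Whether DNA around Ch25h differs between the groups beyond the targeted gene was not tested.

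**Figure D2:**
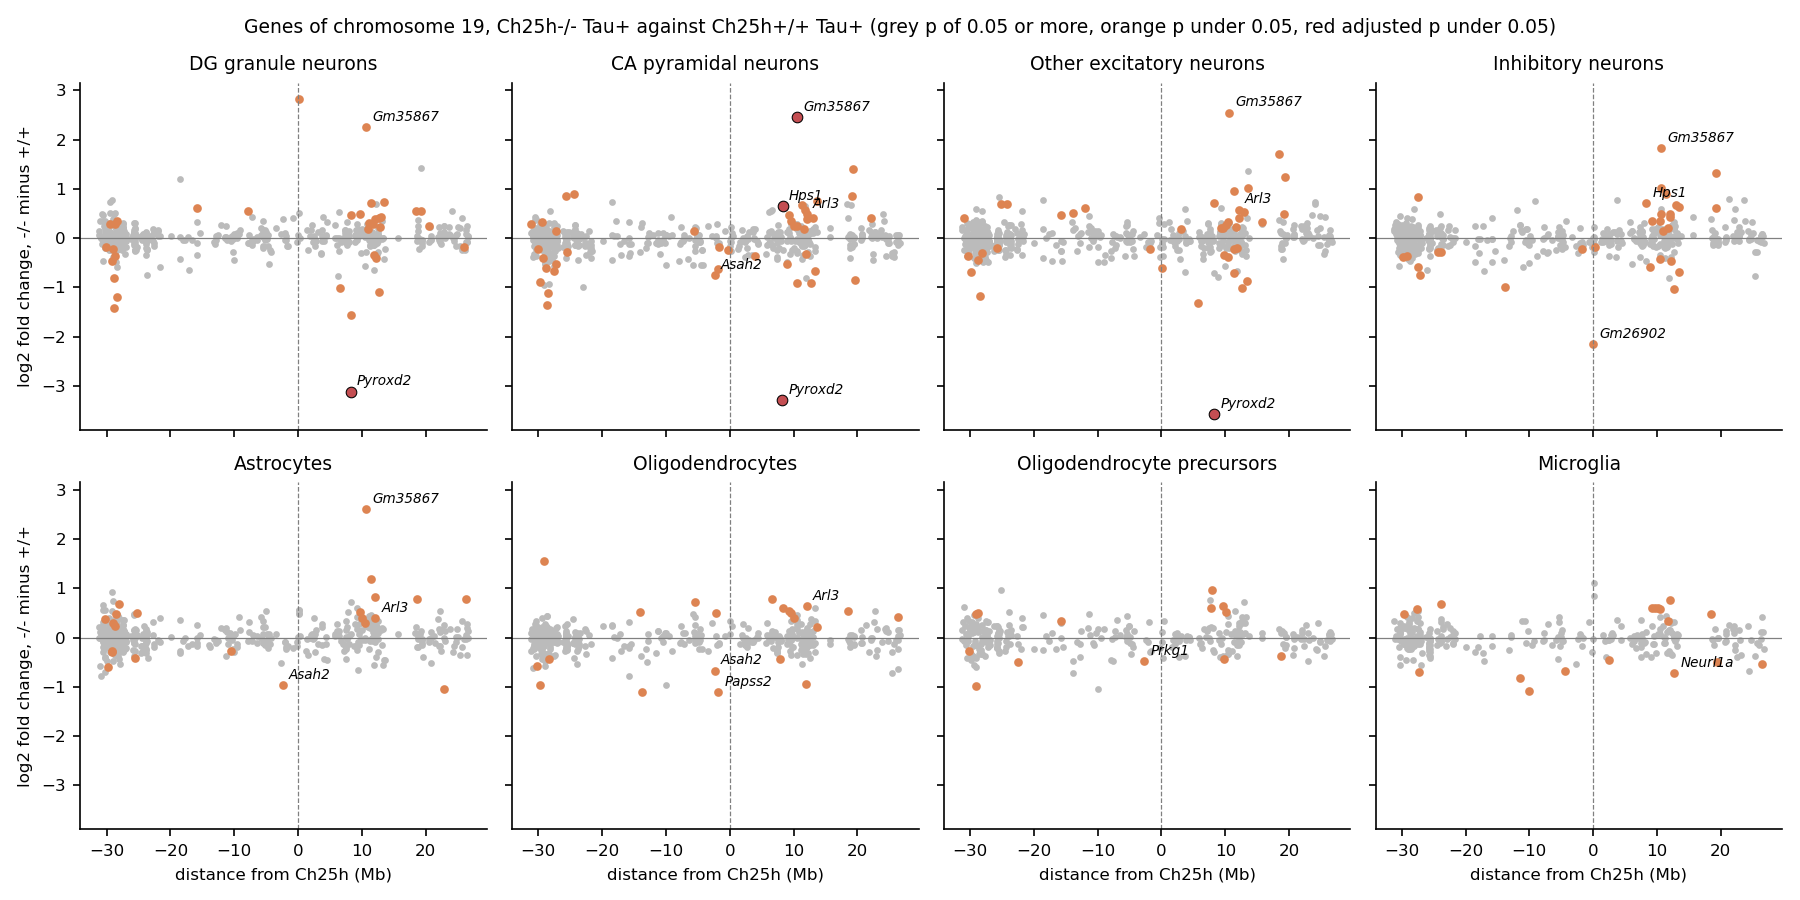
Log2 fold change (labelled Ch25h-/- minus Ch25h+/+, Tau+) of genes tested on chromosome 19 against their distance from Ch25h in Mb, 1 panel for each of the 8 classes. Grey points have an unadjusted p of 0.05 or more, orange points a lower p and red points an adjusted p under 0.05; Pyroxd2 is the red point at 8.25 Mb in the 3 classes where it was called.

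The Tau+ and Tau- contrasts of the Ch25h labels came from 1 fit per class. They shared its estimate of the spread, so their tests were not independent. A second comparison, in separate samples, came from the Tau- libraries. Pyroxd2 was called there in DG granule neurons (-2.55 on the log2 scale, edgeR adjusted p = 0.0163; 1 call, 0.00662%) and in CA pyramidal neurons (-3.62, edgeR adjusted p = 1.79e-04; 1 call, 0.00605%), and Gm26902 was the 1 call in inhibitory neurons (0.00665%). The pyramidal neurons also repeated the direction of Hps1, Gm35867 and Arl3, which were higher without overlap in the Tau- libraries labelled Ch25h-/- (0.47, 1.14 and 0.38 on the log2 scale). Asah2 in oligodendrocytes (-0.86), Prkg1 in precursors (-0.39) and Papss2 in oligodendrocytes (-0.52) were lower without overlap. Tau- values of Sfxn2, Bloc1s2, Gbf1, Gm50196, Stn1, Rbm20, Atad1, Kdm2a and Gm960 are not given here. These repeats are therefore no count to set against genes outside chromosome 19. The genes outside chromosome 19 that separated the tau groups the same way in 3 or more classes, such as Gm12160 (higher in 5 classes), Tspan3 (lower in 5) and Coq10b, Caprin1, Psmd7 and Mrpl23 (lower in 4), separated the Tau- groups that way in 0 of those classes. The test of the difference between the contrasts of the Ch25h labels in tau and Tau- libraries called 0 genes in every class (0%). Among CA pyramidal neurons 1056 genes had an unadjusted p under 0.05 for this difference (6.39%), DESeq2 called 2 and edgeR's lowest adjusted p was 0.672. In the other 7 classes DESeq2 called 0, and 295 to 591 genes had an unadjusted p under 0.05: 3.91% in DG granule neurons, 3.42% in other excitatory neurons, 3.45% in inhibitory neurons, 3.65% in astrocytes, 4.44% in oligodendrocytes, 3.39% in precursors and 3.49% in microglia.

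The genes with the smallest p in each class, chosen among those read at 10 or more UMIs per library with groups that did not overlap, were mixed in function, and none of those named here was called. Groups did not overlap for 2.07 to 2.98% of all genes tested in a class, and for genes chosen this way the separation is no result. In microglia Trim56, a ubiquitin ligase that acts in innate sensing of nucleic acids, read 33.9, 26.4, 17.8 and 23.4 against 37.2, 47.2, 66.6 and 46.7 CPM (0.88 on the log2 scale). Neurl1a, a ubiquitin ligase gene 12.7 Mb from Ch25h, read 119, 133, 178 and 156 against 93.7, 87.1, 77.1 and 91.8 CPM in microglia (-0.72), and was lower without overlap in the Tau- microglia as well (-0.81). Ptpn9, a tyrosine phosphatase, read 103, 101, 112 and 109 against 66.8, 57.7, 89.4 and 66.8 CPM (-0.61). In these 3 genes all microglia libraries labelled Ch25h-/- lay on 1 side of the others, as they did for 2.34% of all genes tested in microglia.

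In oligodendrocytes Map3k20, a stress kinase, read 11.3, 14.6, 15 and 14.2 against 1.94, 10.5, 2.90 and 3.60 CPM (-1.53), with Ch25h-/- replicate 2 close to the libraries labelled Ch25h+/+. Papss2, a sulfate donor synthase gene on chromosome 19, read 7.80, 7.32, 8.15 and 13 against 5.83, 3.0, 3.86 and 3.96 CPM in that class (-1.11). In astrocytes Dad1, a subunit of the oligosaccharyltransferase, read 30.3, 40.2, 32.8 and 39.7 against 16.3, 19.4, 23.1 and 24.4 CPM (-0.81). Bhlhe40, a transcription factor of the clock, had 60.6, 51.5, 64.2 and 61.8 against 80.7, 83.2, 84.9 and 80.3 CPM there (0.47). Both astrocyte genes are among the 2.48% of genes tested in that class whose groups did not overlap. In precursors Bsg, encoding basigin, read 61.2, 60.4, 66.8 and 57.8 against 43.9, 39.4, 42.3 and 36.7 CPM (-0.59), and Zfp14, a zinc finger gene, 13.1, 13.2, 13 and 7.05 against 20, 28.6, 21.8 and 27.5 CPM (1.04).

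Among neurons, Grin2d, an NMDA receptor subunit, read 7.36, 7.09, 7.96 and 4.80 CPM in DG granule neurons labelled Ch25h+/+ and 11.2, 9.17, 10.3 and 9.99 CPM in those labelled Ch25h-/- (0.55 on the log2 scale). The groups did not overlap. In CA pyramidal neurons Unc13b, which primes synaptic vesicles, read 168, 157, 168 and 161 against 182, 183, 180 and 186 CPM (0.16), and Syt9, a synaptotagmin, 8.11, 6.54, 5.73 and 9.64 against 3.95, 4.02, 4.77 and 5.60 CPM (-0.71). The receptor, vesicle and tau kinase lists as wholes had medians close to 0. The glutamate receptor medians were 0.025 in DG granule neurons and 0.056 in CA pyramidal neurons, the vesicle release medians -0.023 and 0.0070, and the medians of tau and its kinases -0.019 and 0.012. Mapt, the mouse tau gene, had log2 fold changes of 0.12 in DG granule neurons, 0.14 in other excitatory neurons and 0.15 in CA pyramidal neurons, and Prnp 0.14 in DG granule neurons and 0.12 in CA pyramidal neurons (-0.0388 and -0.0161 in replicates 1 and 2 alone), none of them called.

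Interferon-stimulated genes, of which 52 were listed, were not called in any class, and a list is described here by its counts and its median log2 fold change beside that of all genes, which was -0.0060 to 0.0046 in the 8 classes. A member that passed the filter on low counts through 1 group alone had to differ, so these counts are descriptions. Over all genes tested, 2.34 to 3.50% of a class had an unadjusted p under 0.05. Members of a list were read in the same libraries, so their p-values are not separate results. In microglia 31 of 31 members tested were above 0 (median 0.37), 4 at an unadjusted p under 0.05 (3.05% over all genes). Their summed level, over all listed genes and as CPM of the class total, was 4051, 2095, 1116 and 2111 CPM in the libraries labelled Ch25h+/+ and 4128, 2856, 1420 and 4560 CPM in those labelled Ch25h-/-. The libraries overlapped over most of their range, and replicate 3 was lowest in both groups. Without Ch25h+/+ replicate 1 the median was 0.749, and without Ch25h-/- replicate 4 it was 0.217 with 25 of 30 members above 0. It was 0.186 in replicates 1 and 2 alone (33 of 41 members above 0) and 0.607 in replicates 3 and 4 alone. In the Tau- microglia, whose summed levels were 887 to 1314 CPM under both Ch25h labels, the median was -0.10.

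Samd9l, an interferon-induced antiviral gene, had 39.2, 20.1, 8.88 and 19.7 CPM in microglia labelled Ch25h+/+ and 104, 33.6, 43.8 and 86.8 CPM in those labelled Ch25h-/-. Only Ch25h+/+ replicate 1 reached into the other group (log2 fold change 1.47, SE 0.43, edgeR adjusted p = 1, unadjusted 0.00346). Without a filter on low counts Samd9l was called (edgeR adjusted p = 0.00190), and with any 1 library left out its log2 fold change was 1.17 to 1.92. Irf9, a transcription factor of interferon signalling, read 68.9, 65.4, 44.4 and 65.2 against 98.9, 74.5, 84.1 and 108 CPM in microglia and did not overlap (0.54, SE 0.19, edgeR adjusted p = 1, unadjusted 0.00932). In the Tau- microglia Irf9 had a log2 fold change of -0.10 and Samd9l, with overlapping libraries, of 1.68.

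Astrocytes had 32 of 34 interferon-stimulated genes above 0 (median 0.31; -0.24 in Tau-), with 1 at an unadjusted p under 0.05. Their summed level was 1741, 685, 462 and 688 CPM in the libraries labelled Ch25h+/+ and 1359, 1080, 449 and 1459 CPM in those labelled Ch25h-/-, so the highest library and the second lowest were both labelled Ch25h+/+ and Ch25h-/- replicate 3 was lowest. The astrocyte median was 0.905 without Ch25h+/+ replicate 1 and 0.106 without Ch25h+/+ replicate 3, and in replicates 1 and 2 alone it was 0.0763. Rtp4 had 27.0, 15.6, 21.1 and 12 against 29.6, 26.5, 22.5 and 32.9 CPM in astrocytes (0.56). Cxcl10, a chemokine, had 39.5, 6.98, 1.80 and 8.62 against 54.5, 24.3, 0 and 32.9 CPM, with low and high libraries in both groups.

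In DG granule neurons 17 of 18 tested members were above 0 (median 1.1, and -0.012 in Tau-). Of these 8 had an unadjusted p under 0.05, as had 3.35% of all genes of the class. The summed level was 232, 209, 159 and 161 CPM against 499, 207, 149 and 374 CPM, so that Ch25h-/- replicates 1 and 4 were high, replicate 2 was within the range of the other group and replicate 3 was the lowest library. Without Ch25h-/- replicate 1 the median was 0.557. Ddx58, the RNA sensor RIG-I, had 3.17, 2.36, 2.07 and 1.67 against 10.0, 4.38, 2.43 and 7.11 CPM (1.33, SE 0.35, edgeR adjusted p = 1, unadjusted 0.00148), and Parp9 had 4.87, 3.88, 2.29 and 2.92 against 11.5, 5.53, 3.57 and 9.31 CPM (1.09). Ddx58 was named for its small p in Tau+, which enters the difference from Tau-, so the next p is a description. For Ddx58 the test of the difference from Tau- gave an edgeR p of 0.00358, or 1 after adjustment. CA pyramidal neurons and other excitatory neurons did not show this pattern, with 11 of 27 and 8 of 23 members above 0 (medians -0.034 and -0.11). In inhibitory neurons 10 of 18 were above 0 (0.074), in precursors 13 of 16 (0.18) and in oligodendrocytes 14 of 17 (0.12; -0.0247 without Ch25h+/+ replicate 3). Ifit1, Ifit2, Ifit3 and Ifit3b belong to this list and lie 0.166, 0.0755, 0.108 and 0.133 Mb from Ch25h.

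**Figure D3:**
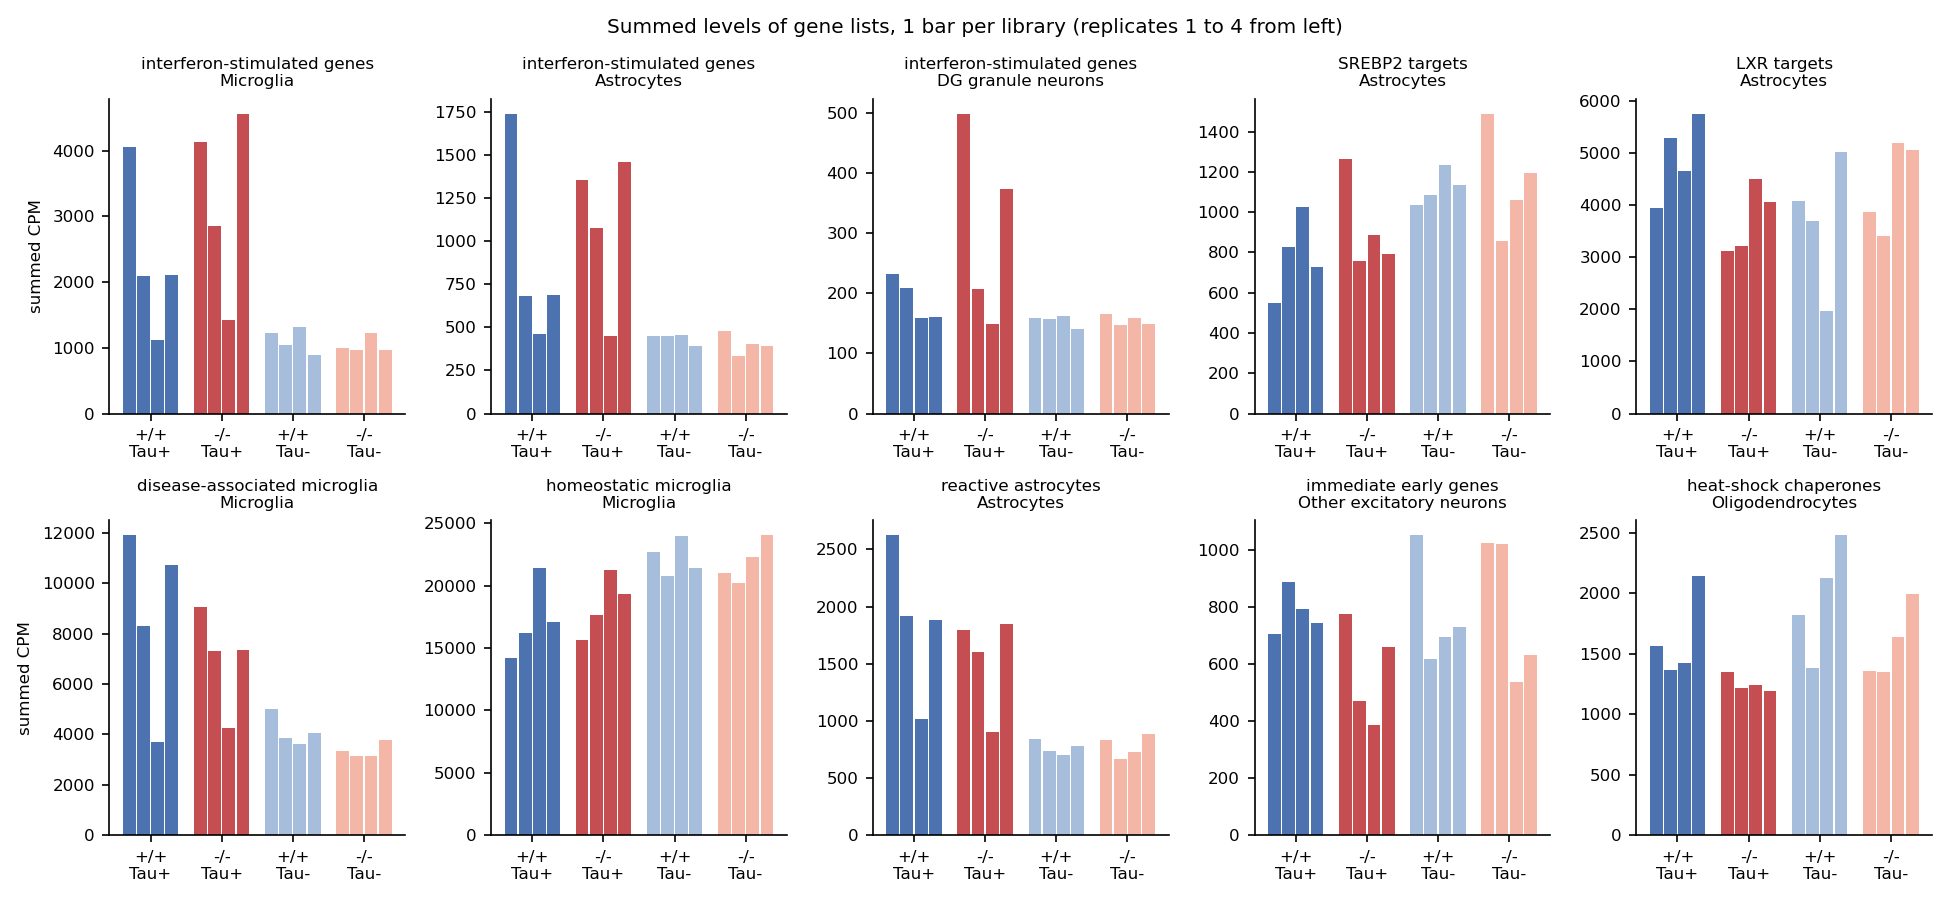
Summed CPM of 10 gene lists in the class named above each panel, 1 bar for each of the 16 libraries, from 0. Interferon-stimulated genes in microglia span 1116 to 4051 CPM in the Tau+ libraries labelled Ch25h+/+ and 1420 to 4560 CPM in those labelled Ch25h-/-, against 887 to 1314 CPM in all Tau- libraries.

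Genes of the cGAS-STING pathway and type I interferon signalling (18 listed) had medians near 0. In microglia 10 of 13 were below 0 (median -0.086), in astrocytes 8 of 12 (-0.074) and in CA pyramidal neurons 10 of 14 (-0.078), while in DG granule neurons 11 of 14 were above 0 (0.040). With 1 library left out the microglial median ran from -0.0827 (without Ch25h-/- replicate 4) to -0.0212 (without Ch25h+/+ replicate 3), and it was 0.0111 in replicates 1 and 2 alone. The astrocyte median ran from -0.0990 (without Ch25h+/+ replicate 3) to -0.0317 (without Ch25h+/+ replicate 1). Tmem173, which encodes STING, and Cgas, which encodes the DNA sensor upstream of it, had log2 fold changes of -0.11 and -0.14 in microglia, with no stable sign: Tmem173 was at 0.147 without Ch25h+/+ replicate 3 and 0.0735 in replicates 1 and 2 alone, and Cgas at 0.256 in replicates 1 and 2 alone. The receptor chain gene Ifnar2 was the member without overlap: in astrocytes it read 32.5, 39.6, 31.0 and 35.2 CPM in the libraries labelled Ch25h+/+ and 25.9, 26.5, 17.9 and 27.0 CPM in those labelled Ch25h-/-. All 4 latter libraries were below the others (-0.51, SE 0.15, edgeR adjusted p = 1, unadjusted 0.00336).

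Oxysterol synthesis and sensing genes (20 listed) had medians of -0.084 in astrocytes (0.0303 without Ch25h+/+ replicate 3), -0.062 in oligodendrocytes, -0.034 in DG granule neurons, -0.032 in microglia, 0.028 in CA pyramidal neurons and 0.059 in other excitatory neurons. With 1 library left out the CA median ran from -0.0292 to 0.0319. Gpr183, the receptor for the dihydroxy product of Ch25h, read 319, 283, 281 and 239 against 241, 250, 359 and 282 CPM in microglia, with overlapping libraries (0.0063 on the log2 scale, -0.296 in replicates 1 and 2 alone). In other excitatory neurons Gpr183 was higher without overlap in the libraries labelled Ch25h-/-, without a call. Cyp7b1, whose enzyme makes that product from 25-hydroxycholesterol, had a log2 fold change of 0.13 in astrocytes (-0.116 in replicates 1 and 2 alone). Osbpl6, an oxysterol-binding protein gene, read 61.7, 56.2, 66.9 and 63.3 against 55.8, 56.2, 46.8 and 50.7 CPM in astrocytes (-0.24), where replicate 2 of both groups came to 56.2 CPM.

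SREBP2 targets, the cholesterol synthesis and uptake genes (25 listed), had 23 of 24 members above 0 in astrocytes (median 0.28; 0.023 in Tau-). None was called, and 1 had an unadjusted p under 0.05. Their summed level was 550, 826, 1026 and 728 CPM in the libraries labelled Ch25h+/+ and 1263, 759, 886 and 791 CPM in those labelled Ch25h-/-. Ch25h+/+ replicate 1 was the lowest library, Ch25h-/- replicate 1 the highest, and the other 6 overlapped. The median was 0.112 without the former, 0.105 without the latter, 0.679 in replicates 1 and 2 alone and -0.0343 in replicates 3 and 4 alone. Hmgcs1, which acts early in cholesterol synthesis, had 27.0, 49.2, 55.3 and 33.0 against 110, 42.1, 54.9 and 42.1 CPM in astrocytes (0.64, edgeR adjusted p = 1, unadjusted 0.0494). Ch25h-/- replicate 1 was far above the other 3 libraries of its group. In DG granule neurons 16 of 23 members were above 0 (0.12; 0.0796 without Ch25h-/- replicate 4 and 0.187 without Ch25h-/- replicate 2), and Fdft1, squalene synthase, read 22.6, 24.8, 25.4 and 20.4 against 27.4, 28.3, 25.4 and 27.9 CPM. In microglia only 2 targets could be tested. In CA pyramidal neurons 11 of 24 were above 0 (-0.0099), and the sides of the replicate split went opposite ways, with 21 of 24 above 0 (0.195) in replicates 1 and 2 alone and 4 of 24 (-0.162) in replicates 3 and 4 alone. With 1 library left out the median in this class ran from -0.132 (without Ch25h+/+ replicate 1) to 0.135 (without Ch25h+/+ replicate 3).

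LXR targets (16 listed) had 12 of 13 members below 0 in astrocytes (median -0.15; -0.032 in Tau-), with a summed level of 3944, 5284, 4651 and 5747 CPM against 3116, 3216, 4495 and 4048 CPM. Apoe, a member whose own levels are given below, made up most of this sum in every library. For the sum, Ch25h-/- replicates 1 and 2 were below all libraries labelled Ch25h+/+, and replicates 3 and 4 were within their range. The median was -0.374 in replicates 1 and 2 alone, -0.0752 in replicates 3 and 4 alone and -0.245 to -0.125 with 1 library left out. Abcg4, a sterol transporter, had 10.7, 11.0, 8.98 and 12 against 8.51, 8.10, 4.04 and 6.58 CPM in astrocytes and did not overlap (-0.62). In DG granule neurons Abcg4 separated the groups the other way, higher without overlap in the libraries labelled Ch25h-/-. Abca1 had a log2 fold change of -0.23 in astrocytes and of -0.18 in microglia. In microglia 5 of 8 targets were below 0 (-0.19; -0.127 without Ch25h-/- replicate 4), and in oligodendrocytes 6 of 9 (-0.18; 0.0184 without Ch25h+/+ replicate 1).

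Apoe, the main lipid carrier of the brain and an LXR target, was read lower in all 8 classes, in none with a call. In microglia it read 2984, 1884, 340 and 3285 CPM in the libraries labelled Ch25h+/+ and 1333, 825, 438 and 1083 CPM in those labelled Ch25h-/-. Replicate 3 was low in both groups and the libraries overlapped (-1.22 on the log2 scale, SE 0.63, edgeR adjusted p = 1, unadjusted 0.0764). Oligodendrocytes had 1437, 1056, 887 and 1361 against 682, 838, 685 and 627 CPM, with no overlap (-0.74, SE 0.40, edgeR adjusted p = 1). Astrocytes, which had the highest level, had 2913, 4308, 3797 and 4685 against 2247, 2458, 3759 and 3149 CPM (-0.44). In the 4 neuron classes the log2 fold change was -0.76 to -0.66. Free RNA moved with it: Apoe made up 3261 CPM of barcodes under 100 UMIs in the libraries labelled Ch25h+/+ and 1934 CPM in those labelled Ch25h-/-, and the part of free RNA in these differences was not tested.

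Among microglial states, the list of disease-associated microglia (36 genes) had 24 of 32 members below 0 (median -0.18; -0.30 in Tau-). The summed level was 11913, 8315, 3685 and 10729 CPM in the libraries labelled Ch25h+/+ and 9050, 7309, 4247 and 7373 CPM in those labelled Ch25h-/-. Again replicate 3 was lowest in both groups and the ranges overlapped, and the median was 0.0562 without Ch25h+/+ replicate 1 and -0.353 without Ch25h+/+ replicate 3. Trem2, a lipid receptor needed for this state, read 346, 321, 320 and 403 against 302, 403, 316 and 354 CPM (-0.018). Its sign was not stable, at 0.0839 in replicates 1 and 2 alone and 0.0678 without Ch25h+/+ replicate 4. Lyz2, encoding lysozyme, had a log2 fold change of -1.09. Homeostatic microglia genes (20 listed) had 19 of 20 members above 0 (median 0.18; 0.024 in Tau-), 0.0720 without Ch25h-/- replicate 3 and 0.370 without Ch25h+/+ replicate 3. Sall1, a transcription factor of microglial identity, read 279, 233, 257 and 248 against 298, 288, 351 and 299 CPM and did not overlap (0.28). MHC class I presentation genes (19 listed) had 14 of 19 members above 0 in microglia (0.19; -0.14 in Tau-), with summed levels of 1886, 1376, 875 and 1440 against 2086, 1517, 997 and 1891 CPM that overlapped. The median was 0.0749 without Ch25h+/+ replicate 3 and 0.435 without Ch25h+/+ replicate 1, and 0.155 and 0.484 on the sides of the replicate split. Tap1, the peptide transporter, had 38.2, 23.9, 8.88 and 28.3 against 47.5, 31.5, 21 and 56.7 CPM (0.53). Clec7a was not tested in microglia because it did not pass the filter on low counts.

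RNA of other classes was also read in microglia, with overlapping ranges in the groups. The 8 markers of choroid plexus summed to 202 to 377 CPM in microglia labelled Ch25h+/+ and to 4.80 to 336 CPM in those labelled Ch25h-/-. Their ranges also overlapped in oligodendrocytes (234 to 443 and 10.1 to 394 CPM) and astrocytes (136 to 271 and 13.1 to 224 CPM). The medians of this sum were lower in the libraries labelled Ch25h-/- in all 8 classes tested. They were 362 and 160 CPM in microglia, 380 and 216 CPM in oligodendrocytes and 256 and 149 CPM in astrocytes. Markers of border-associated macrophages (7 genes, 2 at 0) summed to 5.66 to 39.1 and 3.32 to 32.6 CPM in microglia, and T cell markers (8 genes, 6 at 0) to at most 19.8 and 3.32 CPM. The part of these in the differences above was not tested.

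Reactive astrocyte genes (38 listed) had 22 of 27 members below 0 in astrocytes (median -0.23; 0.019 in Tau-). Their summed level was 2623, 1914, 1016 and 1884 CPM in the libraries labelled Ch25h+/+ and 1797, 1599, 899 and 1847 CPM in those labelled Ch25h-/-, which overlapped. Without Ch25h+/+ replicate 1 the median turned to 0.0424, and it was -0.399 in replicates 1 and 2 alone and -0.0855 in replicates 3 and 4 alone. Gfap, the intermediate filament of reactive astrocytes, had 785, 547, 233 and 495 against 442, 467, 225 and 551 CPM (-0.29; 0.0948 in replicates 3 and 4 alone), Vim -0.62, Serpina3n -0.74 and C4b -0.41 on the log2 scale. Stat3, a transcription factor that drives reactive astrocytes, had 153, 158, 103 and 174 against 115, 110, 95.3 and 118 CPM, with Ch25h+/+ replicate 3 inside the other group (-0.43). In oligodendrocytes 15 of 23 genes of the disease-associated list (24 genes) were below 0 (-0.19; -0.33 in Tau-). This median was -0.0535 without Ch25h+/+ replicate 1, -0.0556 without Ch25h+/+ replicate 4 and -0.0679 without Ch25h-/- replicate 3. It was -0.275 in replicates 1 and 2 alone and 0.00705 in replicates 3 and 4 alone, where 12 of 23 were above 0. C4b, a complement gene of that list, had 369, 173, 46.8 and 309 against 159, 172, 60.2 and 147 CPM (-0.74). Myelin genes (20 listed) had a median of 0.041 in oligodendrocytes with 12 of 20 above 0, and 0.00306 to 0.0834 with 1 library left out.

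Immediate early genes are the transcripts that follow neuronal activity (22 listed). In other excitatory neurons 21 of 22 members were below 0 (median -0.50, and 0.16 in Tau-), 6 at an unadjusted p under 0.05. Over all genes of that class 3.50% had such a p, and members read in the same libraries are not separate results. In inhibitory neurons 19 of 21 members were below 0 (-0.28, and 0.19 in Tau-). In CA pyramidal neurons 17 of 22 were below 0 (-0.38; -0.16 in Tau-), with -0.560 in CA1 and -0.0692 in CA3 neurons fitted apart and from -0.546 (without Ch25h-/- replicate 4) to -0.203 (without Ch25h-/- replicate 3) and -0.217 (without Ch25h+/+ replicate 2) with 1 library left out, and in DG granule neurons 9 of 19 (0.024). The DG median had no stable sign, from -0.373 without Ch25h-/- replicate 1 to 0.221 without Ch25h-/- replicate 3, with 0.134 in replicates 1 and 2 alone and -0.184 in replicates 3 and 4 alone. The summed level in other excitatory neurons was 706, 887, 794 and 744 CPM in the libraries labelled Ch25h+/+ and 775, 472, 387 and 659 CPM in those labelled Ch25h-/-. Ch25h-/- replicates 2, 3 and 4 were below the lowest library of the other group and replicate 1 was within it. The median was -0.730 to -0.387 with 1 library left out, and -0.515 and -0.575 on the sides of the replicate split. Jun had 18.5, 12.2, 11.8 and 13.9 against 7.83, 9.74, 5.49 and 6.11 CPM in other excitatory neurons and 13.5, 8.90, 12.2 and 17.5 against 8.26, 8.48, 4.52 and 4.79 CPM in CA pyramidal neurons. Both sets of libraries were apart, at log2 fold changes of -0.93 and -1.0, with Tau- values of 0.40 and 0.43. Jun was named for its small p in Tau+, which enters the difference from Tau-, so the next p is a description. For Jun in other excitatory neurons the difference from Tau- had an edgeR p of 0.00132, or 0.999 after adjustment. Nr4a2 had 116, 130, 132 and 105 against 86.3, 85.1, 61.4 and 103 CPM in that class without overlap (-0.52). Nr4a2 is also 1 of the 15 fixed markers of other excitatory neurons, a class of several clusters. The part of the make-up of this class in its level was not tested. Free RNA of Jun was also lower, at 26.5 against 45.6 CPM, and its part in the lower Jun levels was not tested.

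Heat-shock chaperones (25 listed) had 21 of 22 members below 0 in oligodendrocytes (median -0.38; -0.18 in Tau-), 20 of 22 in other excitatory neurons (-0.29; -0.059 in Tau-), 19 of 22 in inhibitory neurons (-0.21) and 19 of 23 in CA pyramidal neurons (-0.20). Their summed level in oligodendrocytes was 1561, 1368, 1425 and 2138 CPM in the libraries labelled Ch25h+/+ and 1352, 1219, 1237 and 1191 CPM in those labelled Ch25h-/-. The groups did not overlap, and Ch25h+/+ replicate 4 was far above the rest. Without it the median was -0.207, and it was -0.104 in replicates 1 and 2 alone and -0.627 in replicates 3 and 4 alone. In other excitatory neurons these were -0.114 and -0.374, and in CA pyramidal neurons -0.0430 and -0.281, so in all 3 classes the lower median lay in replicates 3 and 4. Without Ch25h+/+ replicate 4 the medians of these neuron classes were -0.190 and -0.114. Hsp90ab1, an HSP90 chaperone, read 80.6, 89.3, 98.4 and 120 against 76.6, 66.5, 62.9 and 64.0 CPM in other excitatory neurons (-0.52) and 90.0, 94.2, 102 and 122 against 85.0, 83.3, 73.4 and 73.4 CPM in CA pyramidal neurons (-0.37). Hspd1, the mitochondrial HSP60, read 31.2, 30.6, 33.0 and 42.1 against 23.3, 28.2, 19.9 and 23.4 CPM in oligodendrocytes (-0.53). All libraries labelled Ch25h-/- were below all others for these, and none was called.

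**Figure D4:**
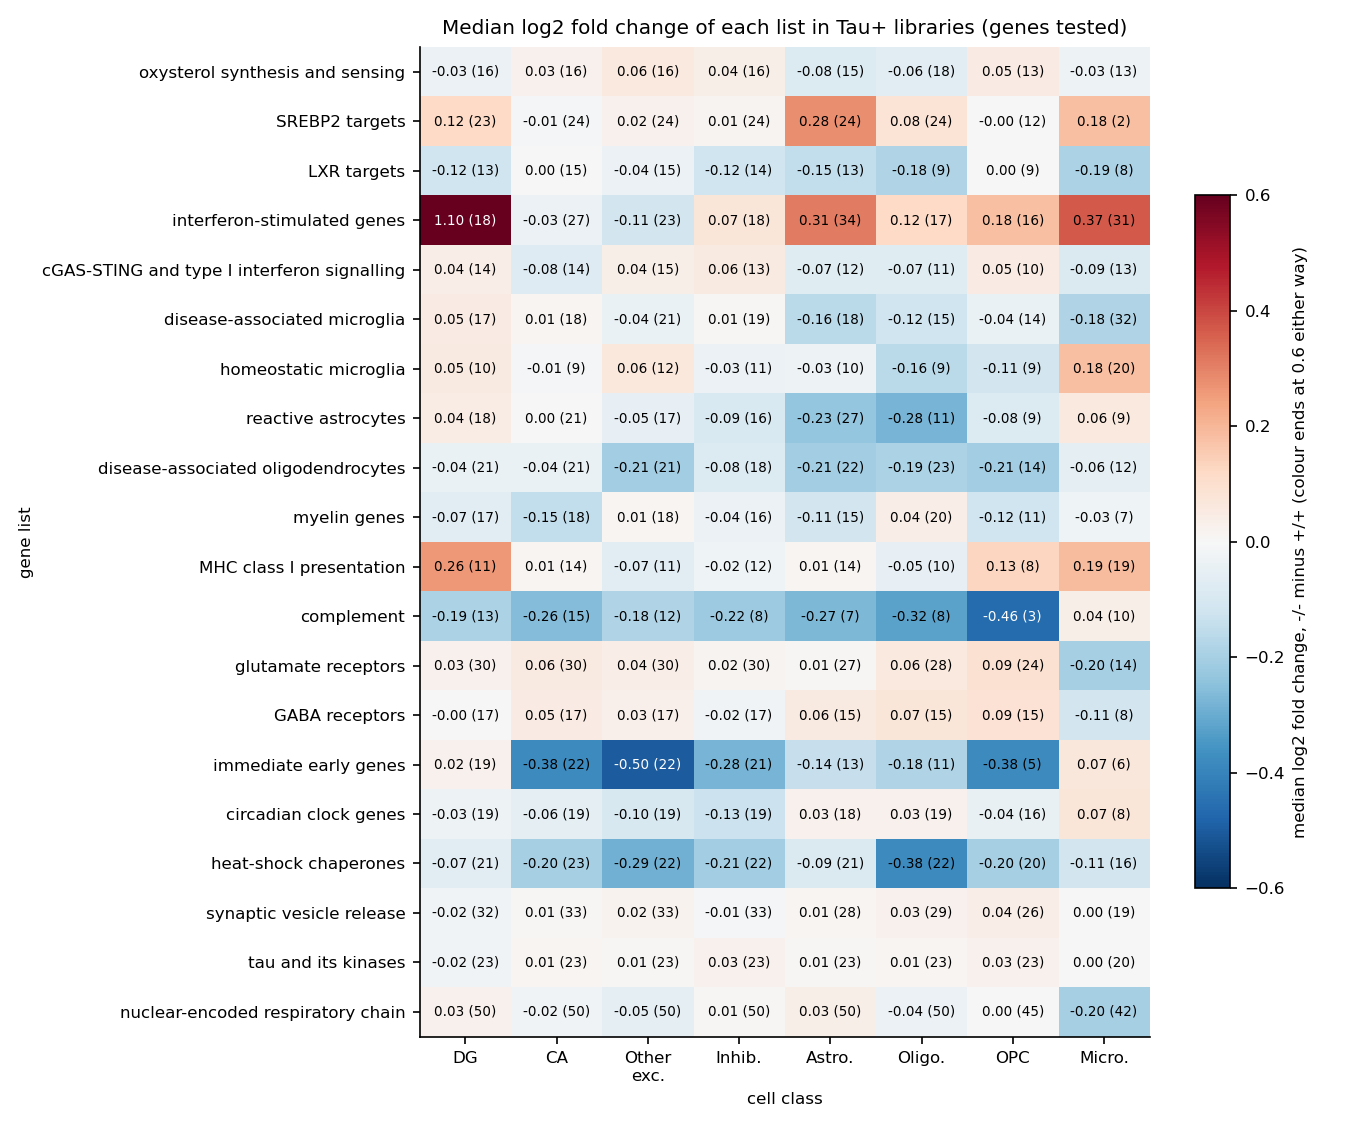
Median log2 fold change (labelled Ch25h-/- minus Ch25h+/+, Tau+) of 20 gene lists in 8 classes, with the number of genes tested in brackets; the colour scale ends at 0.6. Interferon-stimulated genes are at 1.1 in DG granule neurons and 0.37 in microglia, and immediate early genes at -0.50 in other excitatory neurons.

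Among shares of nuclei, those of astrocytes, mural cells and ependymal cells were lower without overlap in the libraries labelled Ch25h-/-. The smallest exact p that 4 against 4 libraries allow is 0.0286, which becomes 0.400 when 1 of the 14 classes compared reaches it, so that missing an adjusted p of 0.05 says little here. Astrocytes made up 12.3, 12.3, 11.7 and 11.5% of the kept nuclei in the libraries labelled Ch25h+/+ and 11.0, 8.35, 9.35 and 8.86% in those labelled Ch25h-/-. All 4 latter shares were lower, at 9.39 ± 1.15% against 12 ± 0.380% (SD, n = 4, exact two-sided permutation p = 0.0286, adjusted 0.133). Mural cells, at 0.425, 0.492, 0.405 and 0.547% against 0.121, 0.238, 0.0639 and 0.187%, and ependymal cells, at 1.08, 0.737, 0.972 and 0.854% against 0.568, 0.308, 0.473 and 0.494%, did not overlap either (exact two-sided permutation p = 0.0286, adjusted 0.133, for each). The difference for mural cells was -0.315 percentage points, and -0.100 with doublets kept. Their shares rest on 37, 40, 30 and 41 nuclei in the libraries labelled Ch25h+/+ and 10, 17, 5 and 14 in those labelled Ch25h-/-. With shares taken within neurons or within other cells, the difference was -4.17 points for astrocytes (exact two-sided permutation p = 0.0571) and 10.7 points for oligodendrocytes, against 3.62 over all nuclei (exact two-sided permutation p = 0.0857). Mural cells (-0.631 points) and ependymal cells (-0.890 points) kept an exact permutation p of 0.0286 there. Choroid plexus cells were 3.37, 2.72, 3.44 and 2.16% against 2.19, 1.18, 0.741 and 0% (exact two-sided permutation p = 0.0571, adjusted 0.200). Microglia were 6.93, 5.47, 3.13 and 6.16% against 4.70, 6.81, 5.16 and 5.96% and oligodendrocytes 19.9 ± 3.24% against 23.5 ± 2.41% (SD, n = 4, exact two-sided permutation p = 0.886 and 0.143). DG granule neurons were 13.8 ± 5.11% and 13.9 ± 1.95%, CA pyramidal neurons 14.6 ± 0.171% and 15.7 ± 2.63% (SD). In the Tau- libraries astrocytes were 11.1 ± 2.71% and 11.6 ± 3.52% (SD). Mural cells were 0.411 ± 0.364% and 0.397 ± 0.248% there, and ependymal cells 0.447 ± 0.164% and 0.307 ± 0.243% (SD, labelled Ch25h+/+ first). Whether the dissection took in unequal amounts of ventricle and border tissue was not tested. Choroid plexus, ependymal and mural shares had lower means in the libraries labelled Ch25h-/-. The choroid plexus transcripts in microglia, oligodendrocytes and astrocytes given above had lower medians in those libraries, with overlapping ranges. Mural markers (9 genes) were lower without overlap in oligodendrocytes, at 11.6 to 13.9 against 5.67 to 9.03 CPM, and ependymal markers (9 genes) in other excitatory neurons, at 33.1 to 34.7 against 27.5 to 32.4 CPM. In the other 7 classes tested each of these marker sums overlapped.

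**Figure D5:**
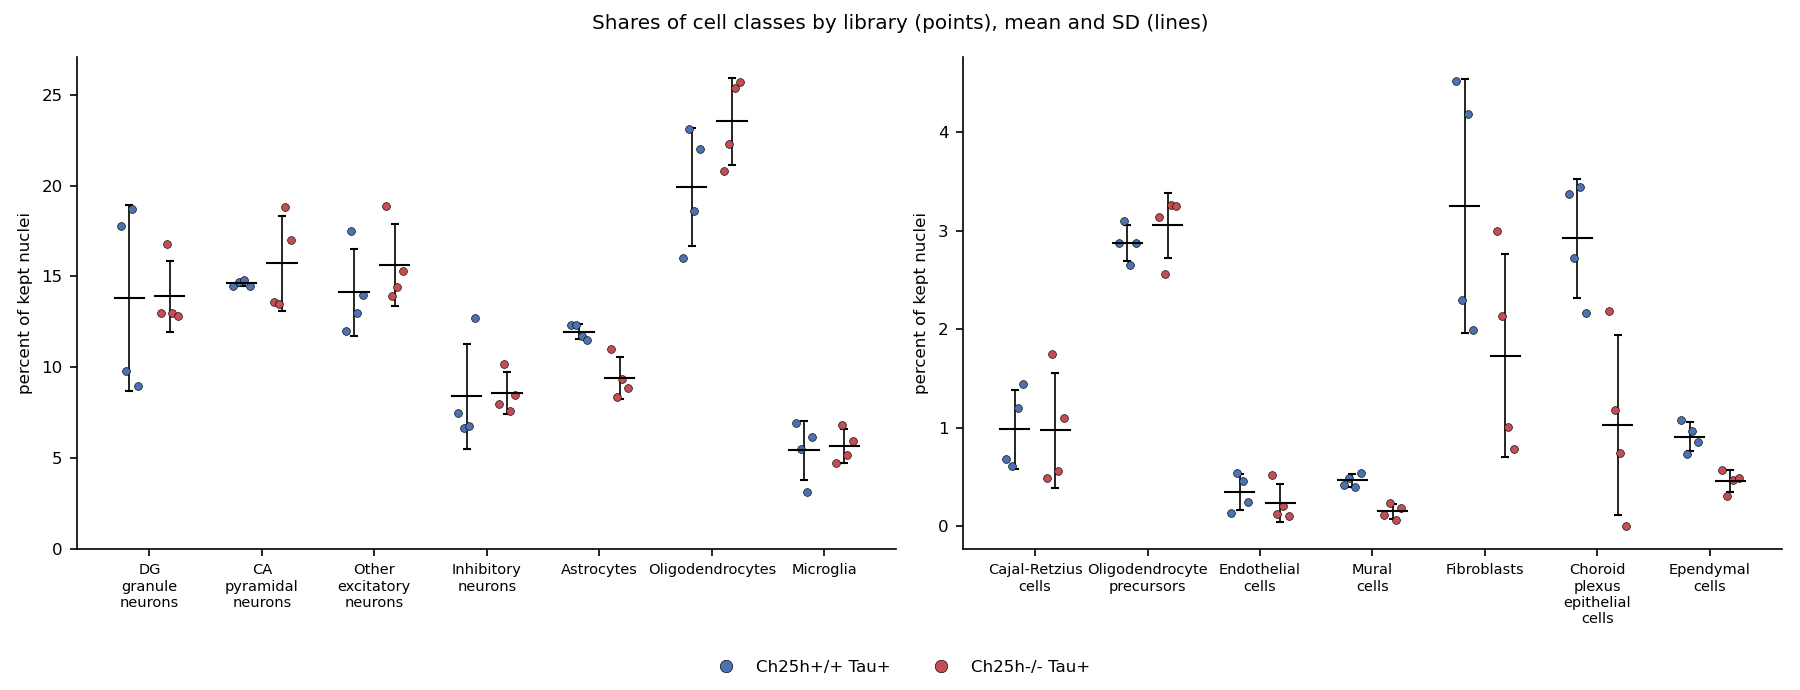
Percent of kept nuclei in each class, 1 point per Tau+ library with the mean and SD of 4 libraries per group. Astrocytes lie at 11.5 to 12.3% in the libraries labelled Ch25h+/+ and at 8.35 to 11.0% in those labelled Ch25h-/-.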

How the data were processed

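The deposited matrices hold UMI counts per gene and barcode, made by version 4 of Cell Ranger per the file headers, and the submitters' processing notes name Cell Ranger 3.1.0, Seurat and mm10. Libraries were made with the 10x Genomics 3′ kit version 3.1, per the labels' protocols. Whether intronic reads were counted is not given in the sources used here. Of 32285 gene identifiers 32158 matched GENCODE M21 (GRCm38), which gave all coordinates.

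Doublets were scored by Scrublet, library by library, with removal of the top 0.8% per 1000 nuclei. Counts were scaled to 10000 per nucleus, and 3000 variable genes and 50 principal components gave Leiden clusters (scanpy 1.11.5, 20 neighbours, resolution 1). A cluster was named from 3 or more fixed markers, and CA1 and CA3 neurons were joined. Unnamed nuclei were 4.35 to 11.39% of a Tau+ library. Pairs of Tau+ libraries shared 12 to 29 barcodes, and pairs with Tau- libraries were not compared. Microglia gave the shallowest sums, 353049 to 990474 UMIs per Tau+ library, and CA pyramidal neurons the deepest, 12089754 to 16628854.

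Counts summed per library and class were tested with edgeR 4.0.16 (TMM, filterByExpr, robust quasi-likelihood, all 16 libraries, 1 mean per group) and DESeq2 1.42.0 as an alternative, p-values adjusted by Benjamini-Hochberg over all genes of a class. CPM of single genes use TMM-scaled library sizes, and those of Ch25h, Gm26902 outside inhibitory neurons, marker sums and list sums the plain totals. Steps were tested on simulated data. Shares and Ch25h were compared by exact permutation of the 8 Tau+ libraries.

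Named genes are those called, then up to 2 per direction and class with the smallest p, a mean of 10 or more UMIs per library in the higher group and no overlap, up to 2 per direction in each list and class, a fixed set around Ch25h, tau and glial state, and chromosome 19 genes separated in 3 or more classes. Gm26902, the Ifit genes, some Tau- values and the non-chromosome 19 genes separated in several classes were chosen after their values were seen. The comparison, members and lists were chosen with earlier results of these data known. Alternatives were another scaling, no low-count filter, only the Tau+ libraries, a term for the replicate split, each side of it alone, each library left out, doublets kept, 1000 or more UMIs, shares within neurons or within other cells, and CA1 and CA3 apart. Results for a few genes are not reported here.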

Additional observations from a re-analysis of the deposited data

Results flagged for a closer look

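In 21 of 378 groups of 4 values (5.56%, where chance gives about 5%) 1 library stood apart from the other 3 by more of the group's range than Dixon's 95% critical value. In CA pyramidal neurons these were Hps1 at 30.3, Fkbp4 at 9.91 and Npas4 at 36.5 CPM in libraries labelled Ch25h-/- and Nr4a3 at 48.1 CPM in 1 labelled Ch25h+/+. Other excitatory neurons had Pyroxd2 at 0.0998 CPM, and inhibitory neurons Vamp2 at 31.7 and Syt9 at 85.2 CPM, all labelled Ch25h-/-. In astrocytes labelled Ch25h-/- they were Sfxn2 at 49.1, Asah2 at 14.5 and Ifnar2 at 17.9 CPM, and the summed oxysterol list at 1366 CPM. Oligodendrocytes had Papss2 at 13 CPM (Ch25h+/+) and Lpcat3 at 65.2 CPM (Ch25h-/-). Precursors had Zfp14 at 7.05 CPM and the summed respiratory chain at 1405 CPM, and microglia Irf9 at 44.4 CPM, all labelled Ch25h+/+. The summed GABA receptors of inhibitory neurons labelled Ch25h-/- reached 6354 CPM and the clock genes of DG granule neurons labelled Ch25h+/+ 1419 CPM. Among shares, DG granule neurons at 16.8% and precursors at 2.56% stood apart in libraries labelled Ch25h-/-, and inhibitory neurons at 12.7% in 1 labelled Ch25h+/+. Npas4 in CA pyramidal neurons had a log2 fold change of 0.18, and of -0.435 without Ch25h-/- replicate 4. Syt9 in inhibitory neurons had 1.55, and -0.324 without Ch25h-/- replicate 2.

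Of 127 pairs of a named gene and a class, 2 had opposite separations with and without tau. In each tau state all libraries labelled Ch25h-/- lay on 1 side of the others. Both pairs were picked for this pattern, so the p-values below are descriptions. Syt9 in CA pyramidal neurons had a log2 fold change of -0.711 in Tau+ and 0.503 in Tau-, a difference with an edgeR p of 2.07e-04 before and 0.722 after adjustment. Ptpn9 in microglia had -0.608 and 0.388, with an edgeR p of 5.09e-04 before and 1 after adjustment.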

How the results depend on the processing

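No paired analysis was possible because replicate numbers follow the order of the samples and pair none of them. The count of called genes moved by more than 1.5 times as follows. DESeq2 called 3 genes in DG granule neurons, 5 in other excitatory neurons, 4 in inhibitory neurons and 1 in microglia, and 2 for the difference between tau states in CA pyramidal neurons. Without a low-count filter 1 gene was called in oligodendrocytes and 2 each in precursors and microglia. With a term for the replicate split 1 was called in oligodendrocytes and 1 in precursors, and with only the Tau+ libraries 3 in other excitatory neurons. Replicates 1 and 2 alone gave 1 in CA pyramidal neurons, 0 in DG granule neurons, 0 in other excitatory neurons, 1 in precursors and 1 in microglia. Replicates 3 and 4 alone gave 0 in CA pyramidal neurons, 0 in DG granule neurons, 0 in other excitatory neurons, 3 in oligodendrocytes and 2 in precursors. CA1 neurons apart gave 1. With 1 library left out, the count was 1 to 3 in CA pyramidal neurons, 0 to 1 in other excitatory neurons and 0 to 1 in precursors; fewer libraries were tested there, and the cause of the other shifts was not tested. The Ch25h difference over all nuclei was -0.0232 CPM, and -0.0746 to 0.0781 CPM with 1 library left out (0.0781 without Ch25h+/+ replicate 1, 0.0290 without Ch25h-/- replicate 4). The share at an unadjusted p under 0.05 in DG granule neurons was 2.17% within 5 Mb of Ch25h. Of 2190 values of named genes under an alternative, 22 had the opposite sign, none called, 32 lost and 19 gained a call, and none reversed a call. Of 817 list medians, 79 had the opposite sign and 26 moved by more than 1 SD between libraries. With 1 library left out, shares cannot go below an exact p of 0.0571. Low counts limit Ch25h itself, and microglia and precursors have the shallowest sums.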

Other observations

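Complement genes (20 listed) had medians below 0 in 7 of the 8 classes, from -0.18 in other excitatory neurons to -0.46 in precursors, where only 3 could be tested, and 0.037 in microglia. The microglial median had no stable sign, from -0.0697 without Ch25h-/- replicate 4 to 0.129 without Ch25h-/- replicate 2. None of the complement genes was called. The astrocyte median of -0.27 rests on 7 genes, 4 of them below 0. It was -0.0189 without Ch25h+/+ replicate 1, -0.0141 in replicates 3 and 4 alone, and -0.00228, with 10 of 20 above 0, with no filter on low counts. C4b, the complement gene read most widely, made up 115 CPM of barcodes under 100 UMIs in the libraries labelled Ch25h+/+ and 63.2 CPM in those labelled Ch25h-/-, and the part of this free RNA was not tested. Circadian clock genes (19 listed) had 14 of 19 members below 0 in other excitatory neurons (median -0.098). Nr1d1, Tef and Ciart did not overlap there, as 2.98% of all genes of the class did not. In the other 7 classes no clock gene was lower without overlap. Rora was higher without overlap in inhibitory neurons and Bhlhe40 in astrocytes, where 12 of 18 members were above 0. Nuclear-encoded respiratory chain genes (50 listed) had 27 of 42 members below 0 in microglia (-0.20), as in the Tau- libraries (-0.18).

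Outside chromosome 19, the non-coding Gm12160 was higher without overlap in 5 classes, and the tetraspanin gene Tspan3 was lower in 5. Coq10b and Hspd1, neighbours on chromosome 1 (55052770 to 55072702 and 55077835 to 55088243), were lower in 4 and 3 classes. None was called.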
